A study of Gallus gallus with 45 samples.

Results

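The interleukins IL15, IL18, IL1B, IL6, IL10 and IL16 were listed as signalling proteins of gut immunity, and their jejunal expression was followed in 2 broiler lines after hatch. Members were the array probes whose RefSeq identifier carries the symbol of a listed gene. This gave 10 of 43603 probes for 5 of the 6 genes, out of 4655 genes to which a probe could be matched. IL15 had 4 probes (A_87_P134613, A_87_P140148, A_87_P134618 and A_87_P037851), IL18 had 2 (A_87_P209533 and A_87_P055391), IL6 had 2 (A_87_P037453 and A_87_P057516), and IL1B (A_87_P008722) and IL10 (A_87_P037221) had 1 each. No probe was matched to IL16 by these identifiers. The array carries an older RefSeq identifier of IL16 that the gene table used here did not hold. The level of IL16 was thus not analysed here. Only 10458 probes could be given a symbol in this way, so further probes of the listed genes may be among the unnamed ones.

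Chickens of the genetically divergent broiler lines X and Y were kept on floor pens with free feed and water and sampled on day 0, 4 or 16. No other treatment is given in the labels. RNA of jejunal tissue was pooled from 10 birds, and each of the 45 pools was measured on 1 one-colour Agilent array. There were 7 pools of each line on day 0, 8 of line X and 7 of line Y on day 4, and 8 of each on day 16. A pool averages its birds, so the spread between pools holds no information on single birds. The labels of 7 line Y pools hold 2 ages, and these pools were placed at day 0 by their age label. Each group lay on a slide of its own, so slide and group cannot be told apart in any comparison.

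The median raw intensity of an array lay between 78 and 262, and was highest in line Y at day 0, from 197 to 262. The median local background was between 19 and 26. On an array, 61.8 to 81.9 % of the probes were well above background, as flagged by the scanner software. Normalized values are given on the log2 scale, where a difference of 1 is a doubling. To be tested, a probe had to exceed 1.1 times the highest dark corner log2 value on all arrays of 1 or more groups, and 25527 probes did so. A probe was called higher or lower at a limma adjusted p under 0.05 with a fold change over 1.3. All 10 enterocyte marker genes with a probe were well above background, and the sum of their normalized linear intensities, in units of 1000, lay between 555 and 712 over all arrays.

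Interleukins act on cells through surface receptors that set off kinases and transcription factors inside the cell. IL15 maintains natural killer cells, CD8 T cells and the lymphocytes of the gut epithelium, and shares receptor chains and the JAK1, JAK3 and STAT5 route with IL2. IL1B and IL18 belong to the IL1 family, are made as precursors and signal through MYD88 and the NF-kB factors. IL6 drives the acute phase response through IL6ST and STAT3, IL10 restrains inflammation, and IL16 attracts cells that carry CD4.

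The 4 IL15 probes were well above background on all 45 arrays, and none was saturated. They were the only members that passed the filter on dim probes. The 6 probes of IL18, IL1B, IL6 and IL10 were removed by it. Of these, the IL18 probes were well above background on 30 arrays (A_87_P209533) and 19 arrays (A_87_P055391), IL1B on 14, the IL6 probes on 6 and 3, and IL10 on 1. These dim probes are described with an additional fit in which no probe was removed.

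The IL15 probe A_87_P134613 had log2 values from 12.68 to 13.17 (median 12.98) in line X at day 0, from 13.12 to 13.63 (median 13.33) at day 4 and from 13.06 to 13.86 (median 13.36) at day 16. In line Y the values were 12.82 to 13.17 (median 12.995) at day 0, 12.82 to 13.69 (median 13.41) at day 4 and 13.72 to 14.17 (median 13.90) at day 16. The pools of line Y at day 16 stood above all line Y pools of day 4, whereas the other neighbouring groups overlapped. Between days 4 and 16 of line Y, 14.2 % of all tested probes had pools that did not overlap. From low to high, the mean levels ran from line X and line Y at day 0 over both lines at day 4 and line X at day 16 to line Y at day 16, and every neighbour in this order overlapped with the next.

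Probe A_87_P140148 ranged in line X from 11.47 to 11.92 (median 11.67) at day 0, from 11.91 to 12.17 (median 12.10) at day 4 and from 11.89 to 12.65 (median 12.33) at day 16. In line Y it ranged from 11.42 to 11.77 (median 11.68), from 12.15 to 12.51 (median 12.39) and from 12.19 to 12.54 (median 12.51). All line Y pools of day 4 lay above all those of day 0, and the days 4 and 16 overlapped in both lines. Between days 0 and 4 of line Y, the pools did not overlap for 29.2 % of all tested probes. The day 16 spread was wider in line X than in line Y, with SDs of 0.29 and 0.12 (n = 8 each).

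Probe A_87_P134618 ranged in line X from 8.41 to 8.97 (median 8.63) at day 0, from 9.12 to 9.81 (median 9.59) at day 4 and from 10.03 to 11.10 (median 10.63) at day 16. Its line X pools did not overlap between days, as for 37.4 % of all tested probes from day 0 to day 4 and 16.4 % from day 4 to day 16. In line Y it ranged from 8.38 to 9.49 (median 8.52), from 8.90 to 9.73 (median 9.49) and from 9.14 to 10.35 (median 9.81). Here neighbouring days overlapped, and at day 0 3 line Y pools (9.17, 9.26 and 9.49) stood apart from the other 4 (8.38 to 8.52).

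Probe A_87_P037851 was the IL15 probe with a line difference on every day. In line X it ranged from 6.49 to 8.40 (median 7.47) at day 0, from 6.71 to 8.89 (median 8.27) at day 4 and from 8.51 to 10.03 (median 9.64) at day 16. In line Y it ranged from 10.75 to 11.20 (median 11.01), from 11.13 to 11.73 (median 11.48) and from 11.25 to 11.75 (median 11.63). Every line Y pool of any day thus lay above every line X pool of any day. On a single day, the pools of the lines did not overlap for 25.9 % (day 0), 12 % (day 4) and 12.7 % (day 16) of all tested probes. Within line X the pools also differed more among themselves, with SDs of 0.66 (n = 7), 0.88 (n = 8) and 0.50 (n = 8) against 0.16 (n = 7), 0.20 (n = 7) and 0.17 (n = 8) in line Y. These line X SDs were larger than those of 98.7, 99.6 and 95.8 % of the tested probes in the same groups, and the line Y SDs larger than those of 46.3, 47.6 and 33.5 %.

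**Figure D1:**
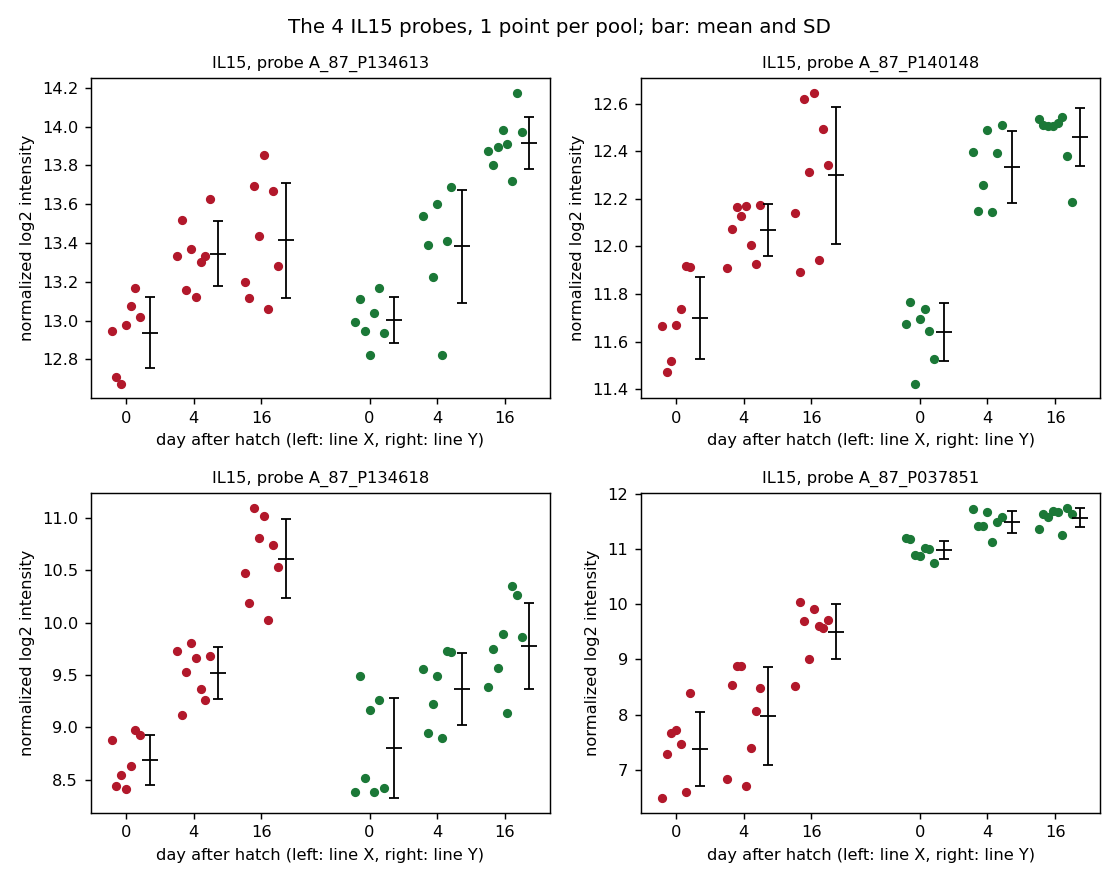
Normalized log2 intensity of the 4 IL15 probes (y axis, each panel with its own scale) by day after hatch (x axis), with 1 point per pool for line X (red, left) and line Y (green, right) and a bar for the mean and SD of 7 or 8 pools. Probe A_87_P037851 separates all line Y pools (10.75 and above) from all line X pools (10.03 and below), and the other 3 probes do not.

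The probes of IL15 differed from each other in several respects. Over the 45 arrays, which share the 6 groups, the Pearson correlation was 0.84 between A_87_P134613 and A_87_P140148, 0.716 between A_87_P134618 and A_87_P140148, and 0.593 between A_87_P134613 and A_87_P134618. Probe A_87_P037851 correlated with them at 0.46, 0.42 and 0.13. After the group means were removed, the first 3 correlations were 0.645, 0.549 and 0.494, and those of A_87_P037851 were 0.238 with A_87_P134613, 0.17 with A_87_P140148 and -0.018 with A_87_P134618. All 4 probes carry the same RefSeq identifier. Where each probe lies in the IL15 transcript was not analysed here, and why they differ was not tested.

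To compare the lines, line Y was set against line X on each day. At day 0, 1 of the 4 IL15 probes was higher in line Y and 0 lower, where 19 % of all tested probes were higher and 19.1 % lower. Probe A_87_P037851 was 12.2-fold higher in line Y (log2 difference 3.61, SE 0.27, limma adjusted p = 3.19e-15). All 7 line Y pools were above all 7 of line X, and 25.9 % of all tested probes had no overlap of the lines at day 0. For the other 3 IL15 probes the difference lay between -0.060 and 0.12, and their 95% confidence intervals together spanned -0.26 to 0.49.

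At day 4, again 1 IL15 probe was higher and 0 lower, against 12.1 % higher and 11.3 % lower of all tested probes. Probe A_87_P037851 was 11.41-fold higher in line Y (log2 difference 3.51, SE 0.26, limma adjusted p = 5.74e-15). Probe A_87_P140148 was 1.20-fold higher (log2 difference 0.27, SE 0.091, adjusted p = 0.0185), which is below the fold limit of 1.3. The differences of A_87_P134613 and A_87_P134618 were 0.037 (95% interval -0.18 to 0.26) and -0.15 (-0.52 to 0.21).

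At day 16 the IL15 probes disagreed in direction, with 2 higher and 1 lower in line Y, against 18.2 % higher and 15.5 % lower of all tested probes. Probe A_87_P037851 was 4.18-fold higher in line Y (log2 difference 2.06, SE 0.25, limma adjusted p = 5.77e-09). All 8 pools of line Y were above all 8 of line X, where 12.7 % of all tested probes had no overlap. Probe A_87_P134613 was 1.42-fold higher (0.50, SE 0.10, adjusted p = 9.89e-05), whereas A_87_P134618 was 1.78-fold lower in line Y (log2 difference -0.83, SE 0.17, adjusted p = 0.000108). For both, some pools of the lines overlapped. Probe A_87_P140148 differed by 0.16 (95% interval -0.014 to 0.34, adjusted p = 0.118).

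Next, the course after hatch was followed within each line. In both lines all 4 IL15 probes had higher means at day 4 than at day 0, by 0.37 to 0.83 on the log2 scale in line X and by 0.38 to 0.69 in line Y. In line X, 3 of 4 were called higher and 0 lower, against 26.3 % higher and 25.6 % lower of all tested probes, and in line Y likewise 3 higher and 0 lower, against 18.8 % and 23.3 %. The median difference of the IL15 probes was 0.50 in line X and 0.53 in line Y, where that of all tested probes was 0.010 and -0.014.

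In line X the rise to day 4 was largest for A_87_P134618, at 1.78-fold (log2 difference 0.83, SE 0.18, limma adjusted p = 9.55e-05). Its day 4 pools all lay above those of day 0, where 37.4 % of all tested probes had no overlap. The calls of A_87_P134613 (1.33-fold, adjusted p = 0.00108) and A_87_P037851 (1.52-fold, SE 0.26 on the log2 scale, adjusted p = 0.0384) were near a limit. Of 15 fits that left out 1 pool, the former was lost in 3 (without pools 3 or 4 of day 0 or pool 16 of day 4, lowest log2 difference 0.36) and the latter in 8 (without pools 2, 3 or 7 of day 0 or pools 10, 11, 12, 15 or 16 of day 4, lowest log2 difference 0.45 and highest adjusted p 0.125). The call of A_87_P134618 remained in all 15. Probe A_87_P140148 was 1.29-fold higher (adjusted p = 0.000452), just under the fold limit, and was called without pools 7 or 8 of day 0 or pools 9 or 15 of day 4 (highest log2 difference 0.41).

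In line Y the rise to day 4 was largest for A_87_P140148, at 1.62-fold (log2 difference 0.69, SE 0.094, limma adjusted p = 2.98e-08). Its pools did not overlap, as for 29.2 % of all tested probes. Probe A_87_P134618 rose 1.48-fold (0.56, SE 0.19, adjusted p = 0.00936). The call of A_87_P134613 rested on the fold limit (1.301-fold, adjusted p = 0.00367) and was lost in 9 of 14 fits that left out 1 pool (pools 2, 4, 5 or 8 of day 0 or pools 9, 10, 12, 15 or 16 of day 4, lowest log2 difference 0.33). Probe A_87_P037851 differed by 0.50 (95% interval -0.036 to 1.04, adjusted p = 0.106). For this probe 6 of 7 day 4 pools lay above all pools of day 0. The interval uses 1 spread estimated over all 6 groups. The SDs of the probe were 0.16 and 0.20 in line Y at days 0 and 4, against 0.50 to 0.88 in line X. The interval thus does not measure the spread of line Y alone.

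From day 4 to day 16 the probes moved differently in the lines. In line X, 2 IL15 probes rose and 0 fell, against 14.1 % higher and 20.6 % lower of all tested probes. These were A_87_P037851, 2.88-fold (log2 difference 1.53, SE 0.25, limma adjusted p = 1.97e-06), and A_87_P134618, 2.13-fold (1.09, SE 0.17, adjusted p = 1.27e-06). In line Y, 1 rose and 0 fell, against 13.7 % and 16.5 %, and this was A_87_P134613, 1.45-fold (0.53, SE 0.11, adjusted p = 8.73e-05). In line X the latter probe differed by 0.068 (95% interval -0.14 to 0.28), and in line Y A_87_P037851 differed by 0.077 (-0.44 to 0.60). The interval of A_87_P037851 again uses the spread over all 6 groups, and its pools differed more in line X than in line Y. Leaving out line Y pools 15 or 16 of day 4 or 17 or 21 of day 16 also brought A_87_P134618 over the limits in line Y (highest log2 difference 0.50, lowest adjusted p 0.0216).

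**Figure D2:**
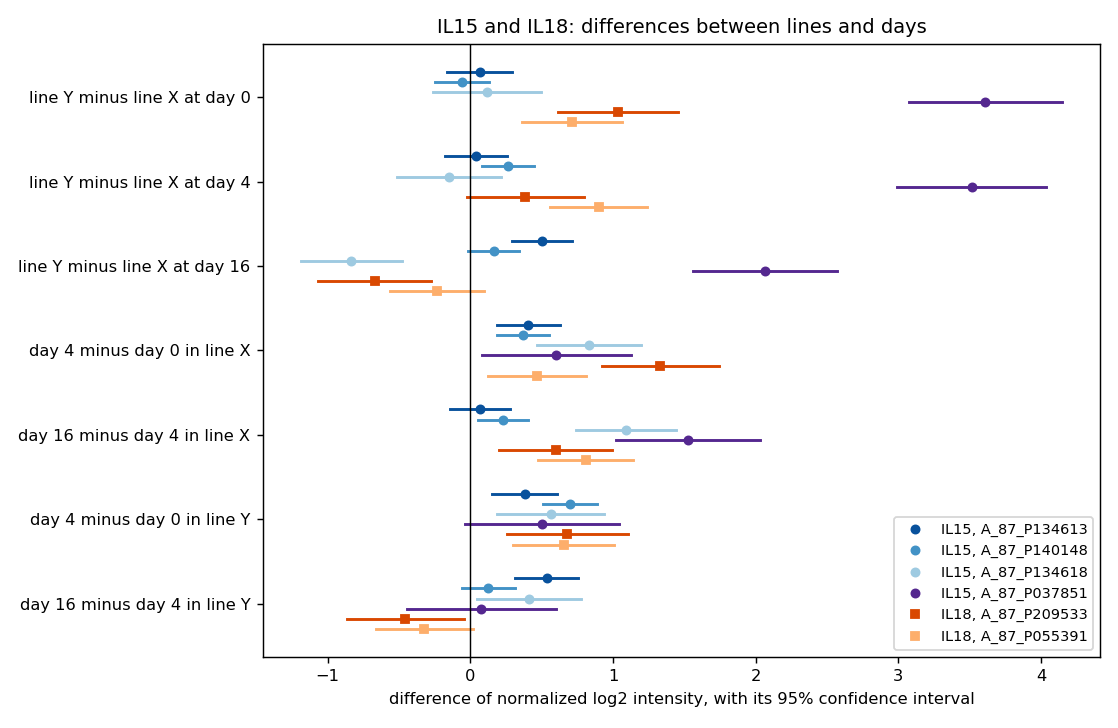
Differences of normalized log2 intensity (x axis) for the 4 IL15 and 2 IL18 probes in the 3 line comparisons and 4 day comparisons (y axis), with points for the estimate and lines for its 95% confidence interval. The IL15 probe A_87_P037851 stands at 3.61, 3.51 and 2.06 in the line comparisons, away from the other IL15 probes. The estimates of the IL18 probes lie above 0 at day 0 (1.03 and 0.71) and below 0 at day 16 (-0.67 and -0.23). At day 0, 0 of 7 line X pools were well above background on either IL18 probe, so the size of these differences is not measured. The day 16 interval of A_87_P055391 (-0.56 to 0.099) includes 0. IL18 values come from the fit without a filter on dim probes.

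Whether the line difference itself changed with age was tested as an interaction. From day 0 to day 4, 0 of the 4 IL15 probes were called by limma, against 21.7 % of all tested probes in either direction, and 1 passed at an unadjusted p under 0.05, which was A_87_P140148 (0.33, 95% interval 0.062 to 0.59, adjusted p = 0.0616). From day 4 to day 16, 3 of 4 were called, against 35 % of all tested probes. The line difference of A_87_P037851 fell by 1.45 on the log2 scale (SE 0.36, limma adjusted p = 0.00122), that of A_87_P134618 fell by 0.68 (SE 0.25, adjusted p = 0.0268) and that of A_87_P134613 grew by 0.47 (SE 0.15, adjusted p = 0.0118). With the pool number as a replicate block the call of A_87_P134618 was lost (-0.66, adjusted p = 0.0606). Leaving out line Y pool 13 of day 4 ended the call of A_87_P134613 through the fold limit (0.37), and leaving out line X pool 19 of day 16, line Y pool 15 of day 4 or line Y pool 21 of day 16 each ended that of A_87_P134618 (highest adjusted p = 0.0516).

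The genes whose pattern over the 45 arrays was most like that of IL15 depended on the probe as well. For A_87_P134613, taken by rule as the tested probe with the highest mean, they were RAP1GDS1, IFRD1 and FGFR1OP2, with Pearson correlations of 0.817, 0.816 and 0.815. For A_87_P140148 they were XCL1, a chemokine of lymphocytes (0.886), the T cell protein CD7 (0.877) and SAMSN1 (0.873), and for A_87_P134618 SERPINI1 (0.879), STK38L (0.872) and PTPRJ (0.872). For A_87_P037851 they were DARS, a tRNA synthetase (0.935), ARHGEF39 (0.933) and ESF1 (0.932). With the group means removed, all of these correlations were lower. They were 0.37, 0.244 and 0.399 for the genes of A_87_P134613, and 0.494, 0.471 and 0.406 for those of A_87_P140148. For A_87_P134618 they were 0.337, 0.351 and 0.474, and for A_87_P037851 0.101, 0.358 and 0.0286, in the order of the genes above. The comparisons for the probes other than A_87_P134613 were added after their values were seen.

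Of 8 listed genes of the IL15 receptor and its signalling, 5 had probes, and 9 probes of 4 genes were tested. From day 0 to day 4, 6 of these 9 rose and 0 fell in line X, against 26.3 % higher and 25.6 % lower of all tested probes, and 2 rose and 0 fell in line Y, against 18.8 % and 23.3 %. From day 4 to day 16, 5 rose and 0 fell in either line, against 14.1 % and 20.6 % in line X and 13.7 % and 16.5 % in line Y. Their median log2 differences were 0.44 and 0.33 to day 4 in lines X and Y and 0.62 and 0.48 to day 16, where those of all tested probes were 0.010 and -0.014, and -0.074 and -0.048.

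IL2RG, the common gamma chain that IL15 shares with IL2, rose at each step in both lines on both its probes. Probe A_87_P277723 had group means of 9.55, 10.57 and 12.08 at days 0, 4 and 16 in line X and 9.08, 10.53 and 12.20 in line Y. Its step from day 4 to day 16 was 1.5015 (SE 0.10, limma adjusted p = 1.24e-16) in line X and 1.67 (SE 0.10, adjusted p = 1.56e-17) in line Y. JAK3, the kinase bound to this chain, rose from day 4 to day 16 by 1.08 (SE 0.093, adjusted p = 3.54e-13) in line X and 1.49 (SE 0.096, adjusted p = 5.9e-17) in line Y, and line Y exceeded line X at day 16 by 0.86 (SE 0.093, adjusted p = 3.07e-10).

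JAK1, the other kinase of the receptor, had 4 tested probes, which disagreed in size and direction. Probe A_87_P037906 was higher in line Y by 2.31 at day 0 (SE 0.19, limma adjusted p = 5.07e-14), by 2.05 at day 4 and by 1.19 at day 16. The day 0 differences of the other 3 were 0.32, 0.29 and -0.22, and none was called. At day 16 A_87_P079711 was lower in line Y (log2 difference -0.79, SE 0.16, adjusted p = 5.31e-05), opposite to A_87_P037906, and the remaining pair differed by -0.074 and 0.060. STAT5A, the transcription factor at the end of the route, was lower in line Y at day 0 on both its tested probes (-0.56, SE 0.11, adjusted p = 3.64e-05 for A_87_P037866, and -0.44, SE 0.13, adjusted p = 0.00324 for A_87_P140158).

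IL18, which with IL12 induces interferon gamma, gave dim signals on both probes. Probe A_87_P209533 ranged in line X from 3.16 to 4.10 (median 3.65) at day 0, from 4.25 to 5.596 (median 4.97) at day 4 and from 5.17 to 6.001 (median 5.65) at day 16, with 0 of 7, 6 of 8 and 7 of 8 pools well above background. In line Y it ranged from 4.33 to 5.05 (median 4.70), from 4.80 to 5.93 (median 5.34) and from 4.21 to 5.70 (median 4.88), with 7 of 7, 6 of 7 and 4 of 8 pools well above background. The 7 line X pools of day 0 lay below all other pools, and the other groups overlapped with at least 1 neighbour. Among all tested probes, 25.9 % had no overlap between the lines at day 0, and 37.4 % none between days 0 and 4 of line X.

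Probe A_87_P055391 ranged in line X from 3.43 to 4.36 (median 4.18), from 4.10 to 4.88 (median 4.45) and from 4.70 to 6.34 (median 5.17), with 0 of 7, 0 of 8 and 5 of 8 pools well above background. In line Y it ranged from 4.40 to 4.85 (median 4.69), from 5.09 to 5.68 (median 5.21) and from 4.69 to 5.45 (median 4.98), with 7 of 7, 4 of 7 and 3 of 8. The line Y pools were above all line X pools at day 0 and at day 4, and the lines overlapped at day 16. For all tested probes the share without overlap was 25.9 % at day 0 and 12 % at day 4. Over the 45 arrays both IL18 probes correlated at 0.704, and at 0.251 with the group means removed.

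**Figure D3:**
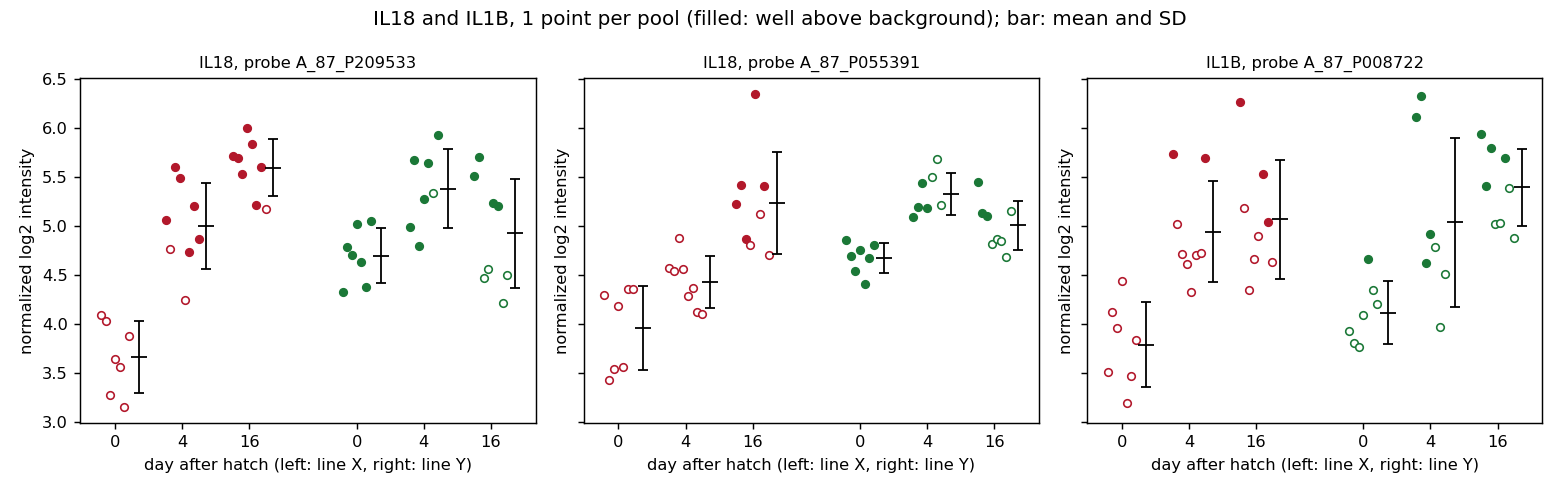
Normalized log2 intensity (y axis) of both IL18 probes and the IL1B probe by day after hatch (x axis), with 1 point per pool for line X (red, left) and line Y (green, right), filled where the probe was well above background, and a bar for the mean and SD. IL18 was well above background in all 7 line Y pools and 0 of 7 line X pools at day 0 on both probes.

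In the fit without a filter on dim probes, both IL18 probes and none of the other 4 dim probes were called higher in line Y at day 0, where 32 % of all probes were called in either direction. Since no line X pool was well above background, the fold is a lower bound, set against the lowest signal well above background on each array or the probe's own signal where that was higher. It was at least 1.53-fold for A_87_P209533 (limma adjusted p = 9.42e-05) and at least 1.39-fold for A_87_P055391 (adjusted p = 0.000974). The arrays of line Y at day 0 were also the brightest before normalization, with median raw intensities of 197 to 262 against 140 to 173.5 in line X, and the part of this in the flag was not tested. With an offset of 50 instead of 1 in the background correction, which shrinks differences of dim probes, 11 of the 14 calls of IL18 and IL1B over all comparisons were lost, 10 of them through the fold limit alone. The day 0 differences were then 0.28 (adjusted p = 0.00577) and 0.20 (adjusted p = 0.0239). The lower bounds of folds given for dim probes thus hold for the offset of 1 only.

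At day 4 A_87_P055391 was called higher in line Y (limma adjusted p = 5.82e-05), where 20.1 % of all probes were called. With 4 of 7 line Y pools and 0 of 8 line X pools well above background, no fold is given. Probe A_87_P209533 differed by 0.38 (95% interval -0.026 to 0.79, adjusted p = 0.162). At day 16 the sign was the opposite. Probe A_87_P209533 was 1.59-fold lower in line Y (log2 difference -0.67, SE 0.20, adjusted p = 0.00584, with 4 of 8 pools of line Y and 7 of 8 of line X well above background), the difference of A_87_P055391 was -0.23 (95% interval -0.56 to 0.099), and 27.7 % of all probes were called. The change of the line difference from day 4 to day 16 was called for both IL18 probes and no other dim probe, at -1.05 (SE 0.28, adjusted p = 0.00364) and -1.13 (SE 0.24, adjusted p = 0.000245), where 27.6 % of all probes were called. For A_87_P055391 the size of this change rests on line X at day 4, where 0 of 8 pools were well above background. Both calls of the change remained with an offset of 50 (-0.44 and -0.45), whereas the line calls of A_87_P055391 at day 4 (0.34) and A_87_P209533 at day 16 (-0.28) fell under the fold limit. From day 0 to day 4 limma called a change of the line difference for 0 of the 6 dim probes, against 15.4 %, and 2 passed at an unadjusted p under 0.05.

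Over time, IL18 rose in line X at both steps. From day 0 to day 4 A_87_P209533 was called higher (limma adjusted p = 4.04e-07). With 0 of 7 and 6 of 8 pools well above background, its fold is not given. In all, 3 of the 6 dim probes, those of IL18 and IL1B, were called higher and 0 lower, against 43.9 % of all probes in either direction. At this step A_87_P055391 was not well above background in any line X pool, so no fold is given, and its call (adjusted p = 0.0183) was lost without pools 3, 4 or 6 of day 0 (highest adjusted p 0.062). From day 4 to day 16 A_87_P209533 was 1.52-fold higher (log2 difference 0.60, SE 0.20, limma adjusted p = 0.0123). Probe A_87_P055391 was also called higher (adjusted p = 9.1e-05), with 0 of 8 and 5 of 8 pools well above background, so its fold is not given. These IL18 probes were the only dim probes called, against 30.7 % of all probes. With an offset of 50, the call of A_87_P209533 to day 4 remained (0.40, adjusted p = 4.94e-05), that of A_87_P055391 to day 4 was lost (0.12, adjusted p = 0.145), and both to day 16 fell under the fold limit (0.26 and 0.31).

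In line Y both IL18 probes and IL1B were called higher from day 0 to day 4, against 33.7 % of all probes. The rises of IL18 were 1.602-fold for A_87_P209533 (log2 difference 0.68, SE 0.21, limma adjusted p = 0.00756) and 1.57-fold for A_87_P055391 (0.65, SE 0.17, adjusted p = 0.00219), and with an offset of 50 both fell under the fold limit (0.28 and 0.26). From day 4 to day 16 limma called 0 of the 6 dim probes, against 25.1 %, and 1 passed at an unadjusted p under 0.05, and the differences of the IL18 probes were -0.45 (95% interval -0.86 to -0.045, adjusted p = 0.08) and -0.32 (-0.66 to 0.019, adjusted p = 0.142). Probe A_87_P209533 was called lower without pool 11 of day 4 or pools 17 or 18 of day 16 (lowest log2 difference -0.57, lowest adjusted p 0.0262).

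IL1B, an early inflammatory cytokine of macrophages, ranged in line X from 3.19 to 4.44 (median 3.84) at day 0, from 4.33 to 5.74 (median 4.72) at day 4 and from 4.35 to 6.26 (median 4.97) at day 16. In line Y it ranged from 3.77 to 4.66 (median 4.09), from 3.97 to 6.32 (median 4.78) and from 4.88 to 5.93 (median 5.40). The probe was well above background in 0 of 7, 2 of 8 and 3 of 8 pools of line X and in 1 of 7, 4 of 7 and 4 of 8 pools of line Y. At days 4 and 16 each group thus held pools well above background beside pools that were not. From day 0 to day 4 IL1B was called higher in line X (limma adjusted p = 0.00044). With 0 of 7 and 2 of 8 pools well above background there, no fold is given. In line Y IL1B was higher by 0.92 on the log2 scale (SE 0.28, adjusted p = 0.00759), where 1 of 7 pools of day 0 was well above background. With an offset of 50 both fell under the fold limit (0.35, adjusted p = 0.00926, and 0.35, adjusted p = 0.0162). Between the lines the differences were 0.33, 0.093 and 0.32 at days 0, 4 and 16, with 95% intervals from -0.46 to 0.90 together, and none was called.

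IL6 and IL10 gave little signal over background. The IL6 probe A_87_P037453 lay between 2.86 and 5.83 over all pools and was well above background in 1 line X pool at day 0, 2 line X pools at day 16, 2 line Y pools at day 0 and 1 line Y pool at day 4. The IL6 probe A_87_P057516 lay between 2.45 and 6.30 and was well above background in 3 pools in all. The IL10 probe lay between 3.05 and 5.17 and was well above background in 1 line X pool at day 0 only. The groups overlapped for IL6 and IL10 in each comparison, and limma called 0 of their 3 probes in any comparison of the fit without a filter. At an unadjusted p under 0.05, 0 IL6 probes passed, and IL10 passed in 3 comparisons (line Y against line X at day 0, day 4 against day 0 in line Y, and the interaction of these). At this signal, differences of IL6 and IL10 between lines or days were not detectable, which does not show that there were none.

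**Figure D4:**
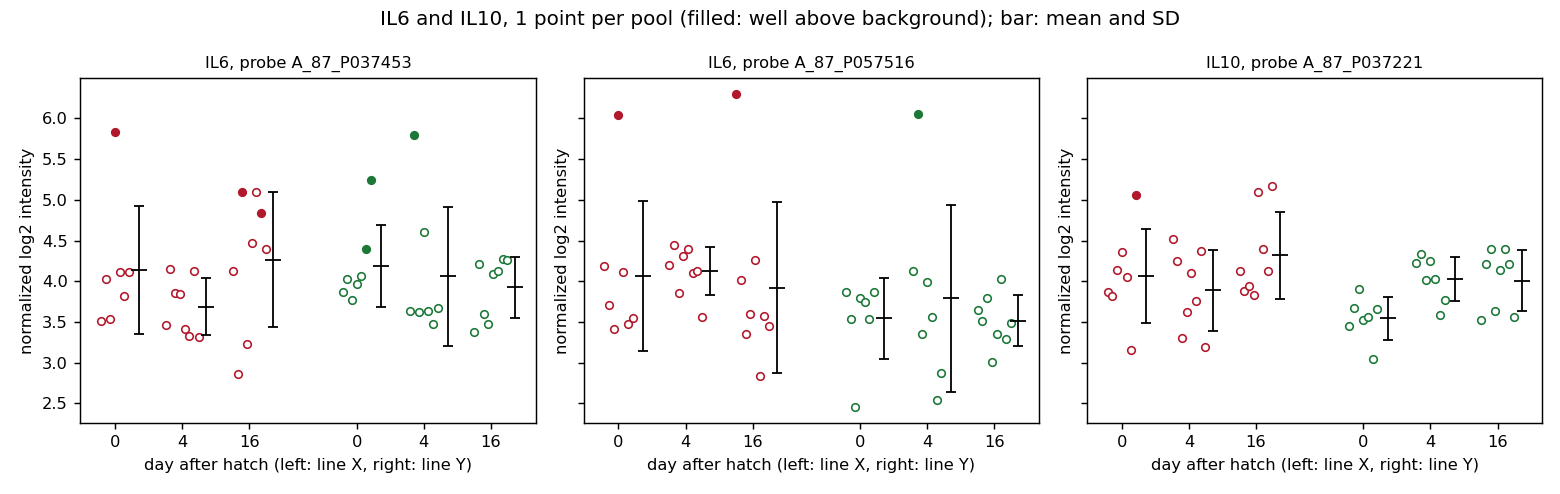
Normalized log2 intensity (y axis) of both IL6 probes and the IL10 probe by day after hatch (x axis), with 1 point per pool for line X (red, left) and line Y (green, right), filled where the probe was well above background, and a bar for the mean and SD. Filled points are 6 for A_87_P037453, 3 for A_87_P057516 and 1 for IL10, and the highest pools reach 5.83, 6.30 and 5.17.

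The receptors and signalling proteins of these cytokines are read against the same shares of all tested probes, which were 26.3 % higher and 25.6 % lower to day 4 in line X, 18.8 % and 23.3 % in line Y, and 14.1 % and 20.6 %, and 13.7 % and 16.5 %, to day 16. For IL1 and IL18, 18 probes of 10 genes were tested, of which 9 rose and 3 fell from day 0 to day 4 in line X (median 0.38) and 12 rose and 3 fell in line Y (median 0.51). From day 4 to day 16, 2 of 18 rose and 2 fell in line X, which is no more than among all tested probes, and 6 rose and 1 fell in line Y. MYD88, the adaptor of the IL1 and IL18 receptors, rose by 1.604 (SE 0.091, limma adjusted p = 5.08e-19) in line X and 1.39 (SE 0.094, adjusted p = 2.38e-16) in line Y from day 0 to day 4 on probe A_87_P014479. Another tested MYD88 probe, A_87_P129173, was dimmer, with a day 0 mean of 6.72 in either line against 10.65 and 10.69 in lines X and Y. Its change from day 0 to day 4 is not described here. NFKBIZ, a nuclear partner of NF-kB, rose from day 0 to day 4 on both its probes in both lines, by 0.96 to 1.302. NFKBIA, the inhibitor of NF-kB, had a line difference that changed from day 4 to day 16 by 0.82 (SE 0.18, adjusted p = 0.000401) and 0.81 (SE 0.19, adjusted p = 0.000886) on its probes. Of the 18 probes, this change was called upward for 5 and downward for 2, against 35 % of all tested probes in either direction. The 2 probes of IL18R1, a chain of the IL18 receptor, were removed by the filter.

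For IL6 and IL10, 17 probes of 9 receptor and signalling genes were tested, of which 14 rose and 1 fell from day 0 to day 4 in line X (median 1.00) and 14 rose and 0 fell in line Y (median 0.99), against 26.3 % and 25.6 %, and 18.8 % and 23.3 %, of all tested probes. Of the 17, 4 passed the filter only through groups of later days, and of the other 13, 10 rose and 1 fell in line X and 11 rose and 0 fell in line Y. From day 4 to day 16, 5 rose and 2 fell in line X (against 14.1 % and 20.6 %) and 7 rose and 0 fell in line Y (against 13.7 % and 16.5 %). These counts to day 16 include the 4 probes that passed only through later days. SOCS3, which limits IL6 signalling, had means of 9.98, 12.68 and 14.12 in line X and 9.58, 12.28 and 14.02 in line Y on probe A_87_P037625, a rise at every step. SOCS1, a related inhibitor, rose by 2.85 in line X (SE 0.21, limma adjusted p = 3.1e-15) and 2.52 in line Y (SE 0.22, adjusted p = 4.87e-13) from day 0 to day 4 on A_87_P057376, and was lower in line Y at day 4 by 0.76 (log2 difference -0.76, SE 0.21, adjusted p = 0.00448). At day 4, 1 of the 17 probes was higher and 5 lower in line Y, against 12.1 % and 11.3 % of all tested probes. IL10RA, a chain of the IL10 receptor, was higher at day 16 than at day 4 by 1.66 (SE 0.13) in line X and 2.10 (SE 0.14) in line Y. Its probe A_87_P051836 is 1 of the 4 that passed the filter only through groups of later days. This rise is thus a description, and other probes of IL10RA were removed by the filter. IL6R was lower in line Y at day 0 (log2 difference -0.92, SE 0.12, adjusted p = 5.12e-08). Of the 17 probes 1 was higher and 1 lower in this comparison, against 19 % and 19.1 % of all tested probes. Both CD4 probes, for the receptor of IL16, were removed by the filter. CD9, a membrane protein listed with it, fell from day 4 to day 16 on both its probes, by 0.66 and 0.64 in line X and by 0.76 and 0.59 in line Y on the log2 scale.

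Other listed interleukins and related cytokines had 22 probes, and 6 probes of 4 genes were tested. Of these 6, 5 (of IL22, IL8L1 and IL8L2) passed the filter only through groups of later days, where they were high, so their rise is a description and is not counted. IL22, a lymphocyte cytokine that acts on the epithelium, had means of 3.97, 6.60 and 8.58 in line X and 3.67, 5.26 and 8.65 in line Y on A_87_P106478, with 1 of 7 line X pools and 0 of 7 line Y pools well above background at day 0. It was lower in line Y at day 4 (log2 difference -1.34, SE 0.37, limma adjusted p = 0.00335). Of the 6 tested probes, 0 were higher and 2 lower in line Y at day 4, against 12.1 % and 11.3 % of all tested probes. IL8L1, a chemokine that attracts heterophils, had means of 4.47, 7.50 and 8.27 in line X and 3.83, 6.77 and 7.80 in line Y on A_87_P008723.

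Targets and effectors of the interleukins had 15 tested probes of 9 genes, of which 12 rose and 2 fell from day 0 to day 4 in line X, 12 rose and 3 fell in line Y, 6 rose and 1 fell from day 4 to day 16 in line X, and 9 rose and 0 fell in line Y. Among all tested probes the shares in these comparisons were 26.3 % and 25.6 %, 18.8 % and 23.3 %, 14.1 % and 20.6 %, and 13.7 % and 16.5 %. Of the 15, 4 passed the filter only through groups of later days, and of the other 11, 8 rose to day 4 in either line, with 2 that fell in line X and 3 in line Y. The counts to day 16 include these 4. GZMA, a protease of cytotoxic lymphocytes, had means of 6.94, 12.82 and 15.94 in line X and 8.23, 13.27 and 15.96 in line Y. Line Y exceeded line X at day 0 by 1.29 (SE 0.16, limma adjusted p = 8.04e-09). Of the 15 probes of this list, 2 were higher and 5 lower in line Y at day 0, against 19 % and 19.1 % of all tested probes. GNLY, a protein of cytotoxic granules, had means of 11.62, 14.22 and 15.97 in line X and 11.72, 14.44 and 15.99 in line Y. The day 16 means of GZMA and GNLY lie near the top of the 16-bit scanner range, so rises and line differences there may be compressed. Up to 1.05 % of the spots of an array were saturated, and saturation of these probes was not analysed here. CCL20, a chemokine of the epithelium, differed between its probes, with day 0 differences of 2.21 (A_87_P038098, SE 0.18, adjusted p = 7.61e-14) and -0.41 (A_87_P139318, SE 0.14, adjusted p = 0.0104) between line Y and line X.

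**Figure D5:**
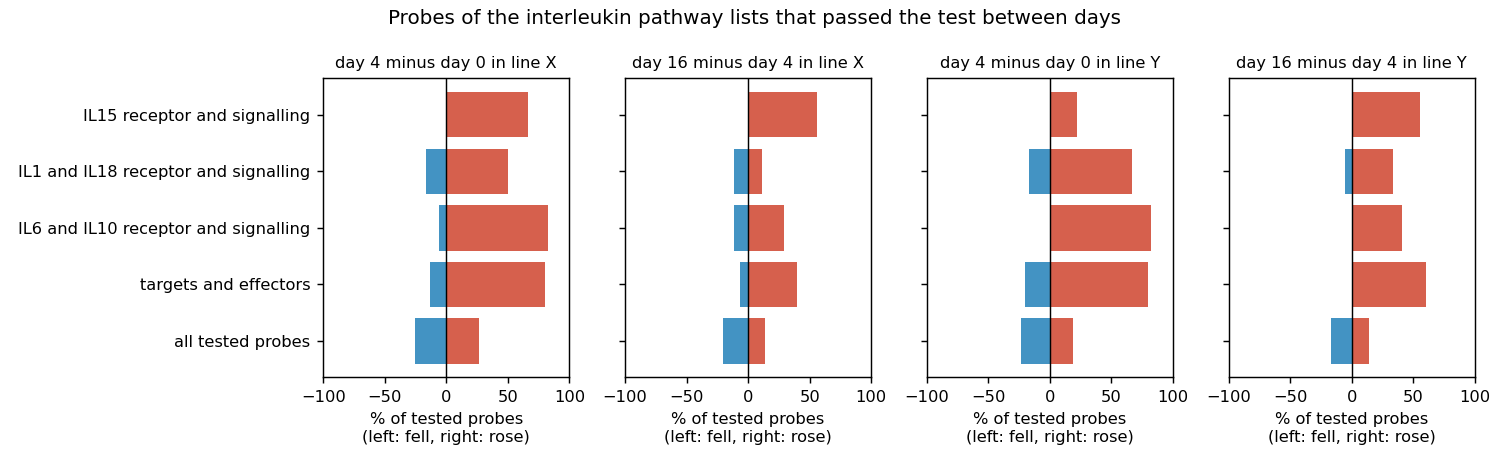
Share of tested probes that rose (right, red) or fell (left, blue) between days, in percent (x axis), for 4 interleukin pathway lists and all tested probes (y axis) in lines X and Y. The list for IL6 and IL10 holds 14 of 17 probes that rose from day 0 to day 4 in either line. Among all tested probes 26.3 % rose in line X and 18.8 % in line Y. The bars include 4 of these 17 probes that passed the filter only through groups of later days, and 4 such probes of 15 for targets and effectors. Of the other 13 for IL6 and IL10, 10 rose to day 4 in line X and 11 in line Y. Of the other 11 for targets and effectors, 8 rose in either line. The IL15 receptor list holds 5 of 9 probes that rose from day 4 to day 16 in either line (14.1 % and 13.7 % of all).

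Markers of several cell types moved with the days. Of 13 T cell marker genes 7 had probes, and 6 of these had a probe well above background on all arrays. The summed linear intensity of their 17 probes, in units of 1000, rose in line X from a median of 10.5 (range 9.24 to 13.5) on day 0 over 30.03 (25.45 to 31.7) on day 4 to 94.0 (85.55 to 98.6) on day 16, and in line Y from 9.605 (7.63 to 12.2) over 34.99 (26.25 to 42.0) to 96.7 (83.6 to 100.4). The sum of macrophage and heterophil markers, with 9 of 13 genes on the array, rose from medians of 57.0 (51.1 to 71.2) over 94.7 (86.4 to 101.4) to 140.2 (128 to 158.3) in line X and from 48.9 (34.6 to 65.5) over 87.1 (82.1 to 91.1) to 124.5 (104.6 to 135.6) in line Y. Erythrocyte markers went from medians of 73.4 over 424.9 to 135.5 in line X and from 100.2 over 419.5 to 206.5 in line Y. Markers of B and plasma cells were at 0.376, 0.508 and 2.58 in line X and 0.325, 0.5264 and 2.31 in line Y, and those of smooth muscle at 212.3, 243.2 and 134.4 and at 234, 235.8 and 167.8. The part of these cells in the interleukin values was not tested, and in bulk tissue fewer cells of a type and less RNA per cell cannot be told apart. Liver and pancreas markers, as signs of other tissue in a pool, had medians of at most 5.84 and 0.716 in any group, with single pools up to 18.1 and 11.8. Genes with a probe well above background on all arrays were 5 of 9 for macrophages and heterophils and 1 of 9 for B and plasma cells. For liver they were 2 of 5 and for pancreas 1 of 5. Signal near background thus enters these sums.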

How the data were processed

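Jejunal RNA of 45 pools of 10 birds was measured on one-colour Agilent arrays. The authors deposited the scanner output, with raw intensities of each spot and its background, and a table of normalized log2 values that they had made with limma in R 3.0.2. Spot signals came from Agilent Feature Extraction. From the median intensities, normexp correction (offset 1), quantile normalization and averaging of duplicate spots were run again with limma 3.58.1 in R 4.3.3, and the result differed from the deposited log2 values by at most 5e-09. Values were named through RefSeq identifiers and a gene table of assembly GRCg7b, whose coordinates were not used. This table gave a symbol to 10458 probes. Sequences were not analysed here.

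One limma model held all 6 groups, with Benjamini-Hochberg adjustment across every probe tested in a comparison. The fit and the call rule were tested on simulated data, made from the normalized and filtered values with independent noise and no shift between slides. For line Y against line X at day 0, with 25527 probes, 25 of 50 planted log2 changes of 0.5 and 49 of 50 of 1 were recovered. Background correction, normalization and the filter were not part of this simulation. Replicates are pools, so p-values measure the spread between pools within slides, taken as 1 estimate per probe over all 6 groups. Where the SDs of the groups differ, as for A_87_P037851, this estimate does not measure the spread of the compared groups alone. No value column was left without a sample. Between the lines, equally numbered pools had correlations over 0.1 of their deviations from group means in all 7 pairs at day 4 (0.102 to 0.261), in 4 of 7 at day 0 and in 3 of 8 at day 16. They share their slide position. The members and gene lists were chosen with earlier results of these data known. Every probe matched to a listed interleukin through its RefSeq identifier is described, and from the pathway lists at most the 3 called probes with the largest difference in a comparison are named. Other genes of these lists, named for agreement between probes or between days, were chosen after their values were seen. Alternatives covered the deposited log2 table, the filter, fold limit, offset, scaling, array weights, replicate block, a fit of only the compared groups and each left-out pool. Figures were drawn with matplotlib 3.10.9.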

Additional observations from a re-analysis of the deposited data

Results flagged for a closer look

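A pool stood apart from the others of its group in 7 of 60 groups of pools and probes, where chance gives about 1 in 20. For the IL15 probe A_87_P140148 in line Y at day 16, pool 24 was lowest at 12.19 (nearest pool 12.38, n = 8). For the IL18 probe A_87_P055391 in line X at day 16, pool 21 was highest at 6.34 (nearest 5.41, n = 8). The IL6 probe A_87_P037453 had high pools in line X at day 0 (pool 5, 5.83) and line Y at day 0 (pool 8, 5.25). The IL6 probe A_87_P057516 had high pools in line X at day 0 (pool 5, 6.04) and day 16 (pool 17, 6.30) and a low pool in line Y at day 0 (pool 4, 2.45). Line X pool 5 of day 0 was thus high on both IL6 probes. Line Y pool 10 of day 4 was also high on both, at 5.80 on A_87_P037453 and 6.06 on A_87_P057516, but was not flagged by this rule.

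The line difference changed from day 4 to day 16 by the interaction test for the IL15 probes A_87_P134613 (0.47), A_87_P134618 (-0.68) and A_87_P037851 (-1.45), and, without a filter on dim probes, for the IL18 probes A_87_P209533 (-1.05) and A_87_P055391 (-1.13). For A_87_P055391 the size rests on line X at day 4, where 0 of 8 pools were well above background.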

How the results depend on the processing

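Of the single-probe values under the alternatives, 434 of 461 for IL15, 176 of 190 for IL18 and 81 of 86 for IL1B kept their direction and their side of the threshold. Part of this was fixed in advance. The counts include 63 values of the deposited log2 table, which equals the main values to 5e-09. They also include settings of the filter alone, which leave each difference unchanged. With only the compared groups in the fit, 61 values stayed the same, 1 gained a call and 1 lost it. An offset of 50 in the normexp correction ended 11 of the 14 calls of the dim IL18 and IL1B probes, 10 of them through the fold limit alone, and 1 of IL15 (A_87_P134613 from day 0 to 4 in line Y, 0.38). The 3 that remained were A_87_P209533 from day 0 to 4 in line X and the change of the line difference from day 4 to 16 of both IL18 probes. With the pool number as a replicate block, the change of the line difference of A_87_P134618 from day 4 to 16 lost its call (-0.66, adjusted p = 0.0606) and no other of 35 values changed, for example the difference of A_87_P037851 at day 0 was 3.61 (adjusted p = 6.16e-11). The counts of called interleukin probes depended on the filter, and examples follow. Without a filter they were 3, 2, 6, 4 and 6 for line Y against X at days 0 and 4, day 4 against 0 and day 16 against 4 in line X and day 4 against 0 in line Y, and 5 for the change of the line difference from day 4 to 16. Of all probes, 32, 20.1, 43.9, 30.7, 33.7 and 27.6 % were then called, in the same order. With a filter on the well above background flag the interleukin counts were 3, 2, 5, 4, 5 and 5. Of all 33278 probes then tested, 6213 were higher and 6627 lower for the first comparison, and 3997 and 3989 for the second. For the others these were 8770 and 8516, 4953 and 6887, 6167 and 7496, and 6446 and 4807. Both IL18 probes passed this filter only through line Y at day 0 (7 of 7 pools). Their calls in comparisons with that group are thus a description. Without a filter or with the flag filter A_87_P209533 was also called lower in line Y at day 16. With the limit passed in all 45 arrays the counts were 0, 0 and 1 for the lines at days 0, 4 and 16, 1 and 0 for the steps of line X and 1 for the change from day 4 to 16, since fewer probes were tested. Of all 7687 probes then tested, 1128 were higher and 1000 lower in line Y at day 0. At days 4 and 16 these were 487 and 659, and 1006 and 1041. They were 2026 and 1414, and 623 and 1248, for the steps of line X, and 1298 and 914 for the change. The brightest dark corner spot over all arrays gave 1 for day 16 against 4 in line X, where 937 of 8457 tested probes were higher and 1400 lower. No limit on the fold gave 2 for the lines at day 4, where 4247 of 25527 tested probes were higher and 5354 lower. It also called A_87_P140148 for both steps of line X, where 8712 were higher and 8425 lower to day 4, and 5219 and 8198 to day 16. Array weights gave 1 for day 4 against 0 in line X, where 6785 of 25527 tested probes were higher and 6587 lower. Leaving out each pool in turn gave 1 to 4 there and 1 to 2 for day 16 against 4 in line Y. The share of all tested probes called in these last fits is not given here.

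Values that turned sign were not called. Scaling to the 75th percentile gave -0.16 for A_87_P134613 at day 0 between the lines, and for the change from day 0 to day 4 it gave 0.30 for that probe, -0.076 for the IL18 probe A_87_P055391 and 0.12 for IL1B. Array weights gave 0.052 for A_87_P134613 in that change. Leaving out each pool in turn gave -0.014 to 0.13 for A_87_P134613 and -0.12 to 0.27 for IL1B between the lines at day 4, -0.045 to 0.24 for IL1B from day 4 to 16 in line X, and -0.28 to 0.050 for A_87_P037851 and -0.078 to 0.066 for A_87_P134613 in the change from day 0 to 4. The cause was not tested. A mean foreground signal was not run, and a slide block was not fitted because each slide held 1 group. Low signal over background limits all values of IL18, IL1B, IL6 and IL10.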
